A study of Mus musculus with 1073 samples.

Results

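The haematopoietic progenitor/colony forming cells (HPC) of the mouse yolk sac were followed from embryonic day (E) 8.5 to E10.5. These progenitors, which the sample labels call erythro-myeloid progenitors, were selected by their stage and sort label alone: 89 cells at E8.5 and 87 cells at E10.5, together 176 of the 926 single-cell transcriptomes in the filtered table. A further 46 HPCs of E9.5 served as the intermediate stage. All cells came from pooled C57BL/6 yolk sacs that were dissociated, sorted by flow cytometry, captured on a Fluidigm C1 microfluidic circuit (1 cell per chamber, full-length cDNA) and sequenced. E8.5 HPCs were sorted as TER119- CDH5+ CD41+, whereas E9.5 and E10.5 HPCs were sorted as TER119- CDH5- CD45+ CD41low. E8.5 HPCs were run on lane 5 of the first flow cell, and E9.5 and E10.5 HPCs on lanes 2 and 4 of the other flow cells. Stage, sort gate, capture and flow cell therefore changed together between E8.5 and E10.5 and cannot be told apart. Each stage was 1 capture with no embryo recorded per cell, so each counted as 1 sample. No difference was tested, and the intervals given on shares of cells cover counting error only.

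Erythro-myeloid progenitors arise from haemogenic endothelium of the yolk sac, a specialised endothelium whose cells round up and leave the vessel wall as blood cells. As they emerge, they lose the junctional protein VE-cadherin (CDH5) and gain the pan-leukocyte phosphatase CD45 (encoded by Ptprc). They colonise the fetal liver and give rise to red cells, megakaryocytes, granulocytes, mast cells and macrophages.

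Levels are CPM, counts scaled to library size with the authors' size factors, averaged over the cells of a stage. A gene was compared if its mean was at least 20 CPM and it was detected in at least 50% of cells at either stage, and was called if the log2 ratio of mean CPM + 1 reached 1 in either direction. Of 15967 genes in the table, 7150 were compared. At E10.5, 480 genes were called higher, 6.71% of those compared, and 758 were called lower, 10.6%. The median log2 ratio was -0.09 (quartiles -0.55 and 0.32). With CPM by total counts in place of the authors' scaling, that median was 0.07 and the calls were 602 higher and 549 lower, so the share of calls that were higher moved from 38.8% to 52.3%. Of the called genes, 325 of the higher ones passed the filter through E10.5 only and 373 of the lower ones through E8.5 only. For these the filter favoured the direction called. The genes nearest to the limit were 3110040N11Rik at 1.00 just inside and Idh3g at 1.00 (139.4 against 280 CPM) just outside.

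**Figure D1:**
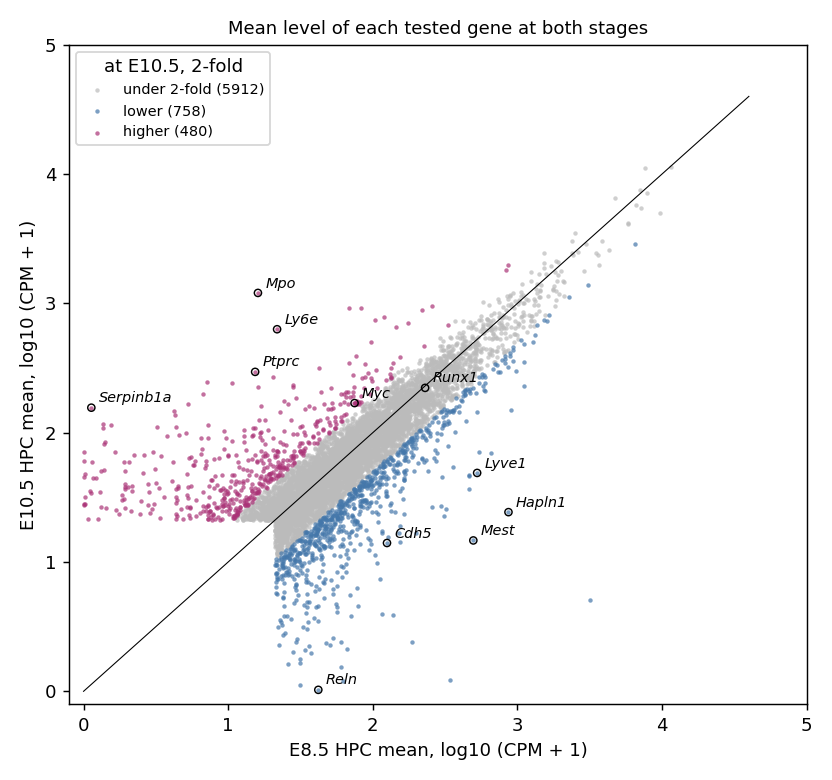
Mean level of each of the 7150 compared genes in E8.5 HPCs (x axis) and E10.5 HPCs (y axis), both as log10 of mean CPM + 1, with the line of equal levels. The 480 higher genes (purple) reach far above the line, as for Mpo and Serpinb1a, and the 758 lower genes (blue) far below it, as for Hapln1, Mest and Reln, while Runx1 lies on it.

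The libraries of the stages were alike in most respects but not all. Counts per cell had medians of 1555240, 3082740 and 1609580 at the successive stages, and no cell had fewer than 483830. The median number of genes detected per cell was 9053, 8948 and 9165. The median share of mitochondrial counts was 3.18%, 2.42% and 2.59%, but 6 of 46 E9.5 cells exceeded 20%, against 1 cell at each of the other stages, and 1 E9.5 cell reached 70.4%. Counts of both Xist and Y-linked genes (at least 5 each) were found in 40 of 89, 13 of 46 and 19 of 87 cells. Index pairs were reused between lanes, with 80 pairs shared by E8.5 and E10.5, 43 by E8.5 and E9.5 and 42 by E9.5 and E10.5. The HPC markers Kit, Myb, Runx1, Gata2, Itga2b, Ptprc and Gfi1b were detected at a median of 6 of 7 per cell at E8.5 and 7 of 7 at E9.5 and E10.5. Itga2b (CD41) and, at the later stages, Ptprc (CD45) encode antigens of the gates. No other population was scored for this set, so the values do not establish the label.

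The surface genes of the gates moved as the gates did, which is a check of the labels and no finding. Cdh5 (VE-cadherin; GRCm38 chromosome 8, 104101625 to 104144511) was detected in 83 of 89 E8.5 cells, 19 of 46 E9.5 cells and 36 of 87 E10.5 cells. Its levels ran from 0 through a median of 79.6 to 1219 CPM at E8.5, from 0 through 0 to 40.3 CPM at E9.5 and from 0 through 0 to 662 CPM at E10.5. The ranges of the stages overlapped, and 1 cell held 58.5% of the E10.5 sum. The log2 ratio was -3.16, and -4.12 without the highest cell of each stage.

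Ptprc (CD45; chromosome 1, 138062861 to 138175708) was detected in 22 of 89, 46 of 46 and 83 of 87 cells. Its range was 0 to 389 CPM with a median of 0 at E8.5, 0.312 to 910 CPM with a median of 201 at E9.5 and 0 to 2795 CPM with a median of 181 at E10.5, a log2 ratio of 4.26. Ptprc was not used to sort E8.5 cells, and 24.7% of that capture held its transcript. Each of these 22 cells also held Cdh5 transcripts, as did 83 of all 89 E8.5 cells. At E10.5, 34 of 87 cells (39.1%) and at E9.5, 19 of 46 cells (41.3%) held both, against 36 and 19 that held Cdh5. Holding both thus followed the separate shares of the 2 genes, and co-expression was not tested. Itga2b (CD41) was lower at E10.5 (92.4 against 26.2 CPM, log2 ratio -1.78), with 64 of 87 cells detected.

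Granule protein genes of myeloid cells, with genes listed beside them such as Serpinb1a and Hdc, had the highest list median. Of 25 listed genes, 13 were in the table and 8 passed the filter. All 8 were called higher, with a median log2 ratio of 4.74 against -0.09 over all compared genes. Of the 8, all but Lyz2 passed the filter through E10.5 only, which favoured a call of higher without forcing it. With no filter, 11 of the 13 were higher and 0 lower, against 1551 of 15967 genes higher and 1841 lower. Cpa3 here, like Psmb8 and Cd48 in the lists that follow, had no count at E8.5; each lay above the middle members of its list also at its bound, so the 3 medians are unchanged by it. Serpinb1a, an inhibitor of neutrophil serine proteases and the gene with the highest ratio upwards, was detected in 2 of 89 E8.5 cells (2.25%, exact interval 0.273 to 7.88%), 36 of 46 E9.5 cells (78.3%, 63.6 to 89.1%) and 81 of 87 E10.5 cells (93.1%, 85.6 to 97.4%). Its highest E8.5 cell had 10.3 CPM, whereas the median E10.5 cell had 101.6 CPM and the highest 910 CPM. Serpinb1a had a log2 ratio of 7.11.

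Mpo (myeloperoxidase, the main peroxidase of neutrophil granules) was already transcribed at E8.5. The numbers of cells with Mpo were 38 of 89, 43 of 46 and 87 of 87. E8.5 levels ran from 0 through a median of 0 to 184 CPM, E9.5 levels from 0 through 150.5 to 2878 CPM and E10.5 levels from 1.44 through 483 to 8420 CPM. The E8.5 and E10.5 ranges overlapped, although the median E10.5 cell lay above the highest E8.5 cell, and the mean was 79.8-fold higher. In E8.5 endothelium, a population without this granule, Mpo was detected in 5.06% of cells.

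Prtn3 (proteinase 3) followed the same course, from 25 of 89 cells with a mean of 4.28 CPM to 44 of 46 with 143.6 CPM and 85 of 87 with 165 CPM. Cpa3 (carboxypeptidase A3, a mast cell protease) had no count in the 89 E8.5 cells (3 cells of 89, a limit of 3.37% on the share of cells with a count) and was detected in 23 of 46 and 54 of 87 cells thereafter. Against a floor of 3 counts over the whole E8.5 capture, its E10.5 mean of 69.3 CPM was at least 3021-fold higher. Srgn (serglycin, the granule proteoglycan) was 24.8-fold, Hdc (histidine decarboxylase) 27.2-fold, Cst7 29.4-fold and Lyz2 (lysozyme) 6.55-fold higher. Elane (neutrophil elastase) remained below the filter, with 0, 6 and 19 cells detected at the respective stages.

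The promoters of 3 of these granule genes are given below, because this list had the highest median. Sequences are from RefSeq on GRCm38.p6, 250 bases before to 50 bases after the annotated start. Capitals mark the motifs, which were searched on both strands. GAGGAAG is a form bound by ETS factors such as PU.1. AGATAA is bound by GATA factors. TGTGGT is bound by RUNX factors and stands in Cpa3 on the other strand.
Mpo, chr11:87793534-87793833, plus strand: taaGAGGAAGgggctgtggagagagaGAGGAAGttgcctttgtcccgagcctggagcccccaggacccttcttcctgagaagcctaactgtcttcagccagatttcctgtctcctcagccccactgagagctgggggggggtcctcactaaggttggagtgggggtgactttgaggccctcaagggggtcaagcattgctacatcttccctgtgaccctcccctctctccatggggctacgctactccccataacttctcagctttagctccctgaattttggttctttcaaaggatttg
Prtn3, chr10:79879417-79879716, plus strand: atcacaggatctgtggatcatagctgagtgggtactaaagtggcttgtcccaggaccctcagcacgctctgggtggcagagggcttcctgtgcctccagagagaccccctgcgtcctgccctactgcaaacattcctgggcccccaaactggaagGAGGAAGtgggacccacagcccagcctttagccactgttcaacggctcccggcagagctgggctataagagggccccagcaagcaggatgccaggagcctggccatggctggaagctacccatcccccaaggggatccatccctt
Cpa3, chr3:20242132-20242431, minus strand: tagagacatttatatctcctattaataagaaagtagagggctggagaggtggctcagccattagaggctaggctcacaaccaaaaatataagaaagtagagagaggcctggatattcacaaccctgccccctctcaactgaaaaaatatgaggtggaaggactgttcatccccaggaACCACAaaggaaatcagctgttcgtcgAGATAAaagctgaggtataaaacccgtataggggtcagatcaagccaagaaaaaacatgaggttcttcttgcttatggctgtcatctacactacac
Promoters were found for 347 of the 480 higher genes and 541 of the 758 lower genes. GAGGAAG stood in 20.4% of the 480 promoters of higher genes, 13.5% of the 710 promoters of lower genes, 14.0% of the 6545 promoters of compared genes and 13.6% of all 32851 promoters. TGTGGT stood in 15.0%, 11.0%, 11.7% and 16.8% of them. AGATAA stood in 6.67%, 5.63%, 5.82% and 11.2%. Over the 8 promoters found for granule genes, GAGGAAG stood in 2, TGTGGT in 4 and AGATAA in 1. The Hdc promoter and an Srgn promoter held none of these motifs, so the 3 promoters printed do not stand for the list. These shares describe letters in a window and were not tested.

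Most compared genes of leukocyte adhesion and signalling were higher. Of 50 listed genes, all in the table, 42 passed the filter, 30 were called higher, 0 lower, and the median log2 ratio was 1.95. Members such as Cd48 and Arhgap15 passed through E10.5 only, so the filter favoured a call of higher. With no filter, 37 of the 50 were higher and 0 lower, against 1551 of 15967 genes higher and 1841 lower. The largest ratios were those of Igsf6 (6.42), Arhgap15, a Rac GTPase-activating protein (6.32), Cd48, a leukocyte surface glycoprotein (5.49), and Lsp1, an actin-binding leukocyte protein (5.12). Arhgap15 went from 1 of 89 cells at E8.5 to 41 of 46 at E9.5 and 75 of 87 at E10.5, with medians of 0, 6.23 and 65.8 CPM. Cd48 had no count at E8.5 and was at least 1918-fold higher at E10.5, where 63 of 87 cells held it. Igsf6 was counted in 22 of 89 E8.5 cells, but only 1.12% of them had 10 counts or more, against 54.0% at E10.5.

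Not every gene of this list differed. The kinases Syk (0.14) and Lyn (-0.19), the adaptor Lcp2 (-0.77) and the actin regulator Was (0.08) stayed under 2-fold. Those called included, chosen after their values were seen, integrins (Itgam 4.10, Itgal 3.68, Itga4 2.68), NADPH oxidase subunits (Ncf4 4.70, Ncf1 2.98, Cyba 1.49) and the GTPase Rac2 (3.46) with its activator Dock2 (3.82).

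Most compared antigen presentation and interferon-linked genes were higher. Of 35 listed genes, 31 were in the table, 13 passed and 12 were called higher (median 2.35). Members such as H2-K1 and Psmb8 passed through E10.5 only, so the filter favoured a call of higher. With no filter, 23 of the 31 were higher and 0 lower, against 1551 of 15967 genes higher and 1841 lower. Ly6e, a GPI-anchored surface protein, was detected in 38 of 89 E8.5 cells with a highest value of 248 CPM, in 46 of 46 E9.5 cells with a median of 280 CPM and in 87 of 87 E10.5 cells with a median of 512 CPM, a log2 ratio of 4.85. H2-K1, a classical MHC class I heavy chain, went from 9 of 89 cells (mean 1.06 CPM) to 43 of 46 (56.3 CPM) and 75 of 87 (58.5 CPM). Psmb8, an immunoproteasome subunit, had no count at E8.5 and was at least 1162-fold higher at E10.5. Ifitm1, an interferon-induced membrane protein, was at 3.20, while Ifitm2 was at -0.09.

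Most macrophage genes were too low to compare. Of 20 listed genes, 19 were in the table and 7 passed, of which Cx3cr1 (6.21), Cd68 (3.34), Csf1r (2.59), F13a1 (1.61) and Mrc1 (1.01) were called higher and Apoe (-1.87) lower. With no filter, 17 of the 19 were higher and 1 lower, against 1551 of 15967 genes higher and 1841 lower. Cx3cr1, the fractalkine receptor, was detected in 3 of 89, 32 of 46 and 55 of 87 cells, but its E10.5 median was 0.617 CPM and its highest cell 2003 CPM. Csf1r, the receptor of macrophage colony-stimulating factor, had a mean of 99.6 CPM at E10.5 with a median of 1.64 CPM. Both means lay far above the medians. At E10.5, 12 of 87 cells had at least 10 counts of 3 or more of Csf1r, Cx3cr1, C1qa, C1qb and C1qc. Without them, 3 of 6 compared macrophage genes were higher and 2 lower, Mrc1 turned from 1.01 to -2.09, and the granule genes were 9 of 9 higher. The summed level of the 6 macrophage markers had a median of 0 in E8.5 cells (highest 182 CPM), 55.5 in E9.5 cells and 5.34 in E10.5 cells (highest 6134 CPM), against 3182 in E10.5 macrophages, and C1qa and Adgre1 had no count at E8.5. The part of these cells in the other results was not tested beyond the values given without them.

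**Figure D2:**
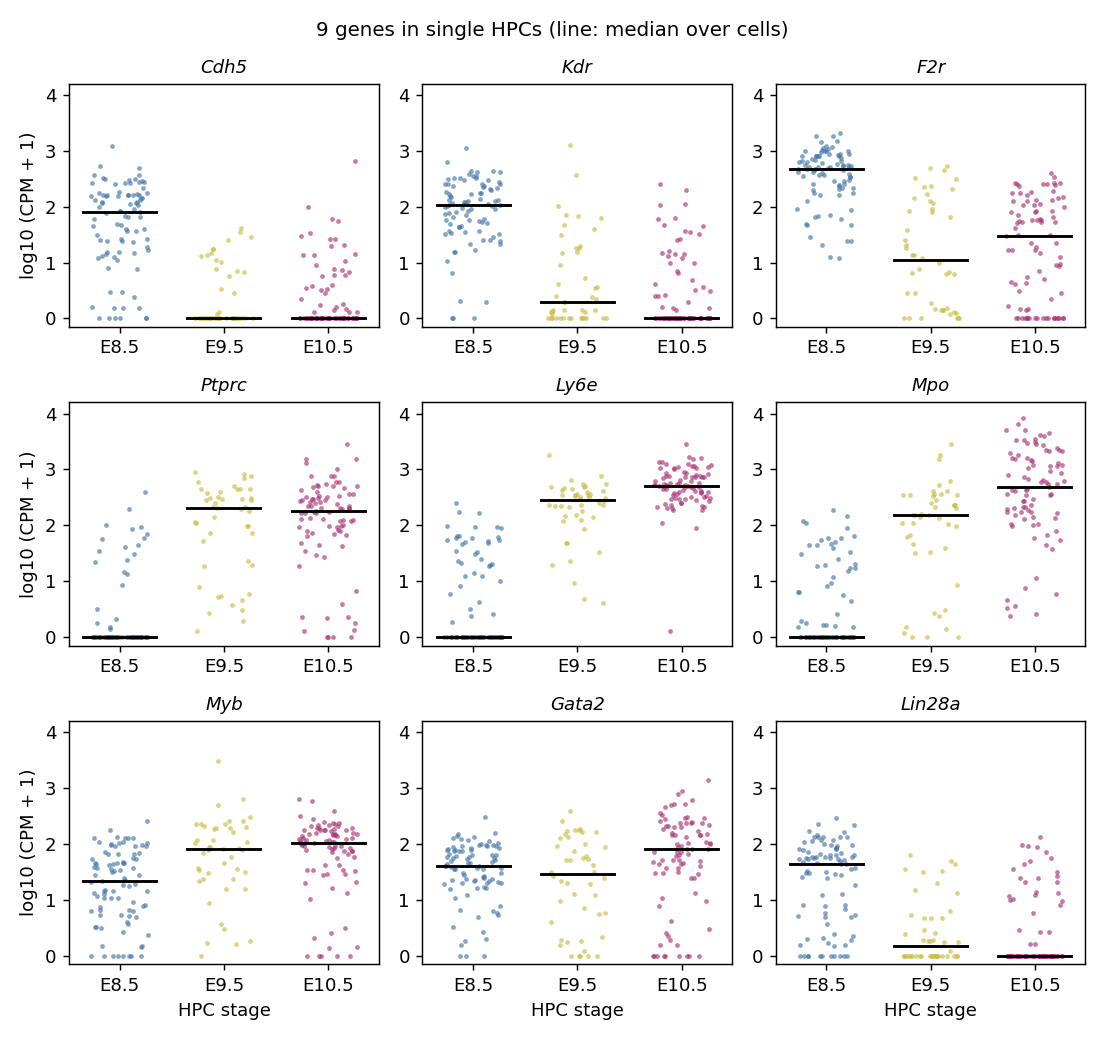
Levels of 9 genes in single HPCs of E8.5 (89 cells), E9.5 (46) and E10.5 (87), as log10 of CPM + 1; each point is a cell and each line the median over cells. Cdh5, Kdr, F2r and Lin28a were highest at E8.5, Ptprc, Ly6e and Mpo at the later stages, and Myb and Gata2 differed less, with cells at 0 at every stage.

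Among blood transcription factors, most of the core set was level. Of 34 listed genes, 33 were in the table and 24 passed, with 5 called higher, 1 lower and a median of -0.05. Runx1, required for blood cells to emerge from endothelium, was detected in all cells of the 3 stages, with means of 229, 311 and 221 CPM and a log2 ratio of -0.05. Meis1 (-0.33), Gfi1b (-0.11), Lyl1 (0.13), Lmo2 (-0.43) and Hhex (-0.17) were also under 2-fold. The receptor Kit was at 0.59.

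The higher members were Myb, Gata2, Elf1, Ikzf1 and Myc. Myb, needed for definitive but not primitive blood, ran from 0 through a median of 21.1 to 260 CPM at E8.5, from 0 through 79.1 to 3002 CPM at E9.5 and from 0 through 104.7 to 626 CPM at E10.5 (log2 ratio 1.57). Gata2, a regulator of progenitor and mast cell fate, had medians of 39.2, 28.1 and 78.9 CPM and a log2 ratio of 1.55, and its E9.5 mean (64.8 CPM) lay nearer to E8.5 (52.0 CPM) than to E10.5 (153.9 CPM). Ikzf1 (Ikaros) had a log2 ratio of 1.21 and Elf1, an ETS factor, of 1.35. All stage ranges of these genes overlapped. Ldb1, the adaptor of GATA complexes, was the lower member at -1.79, but 1 cell held 64.1% of its E8.5 sum and without the highest cells the ratio was -0.66. Tal1, a partner of Lmo2 that is counted in the erythroid list and was named after its value was seen, was lower as well (79.6, 56.9 and 34.9 CPM, -1.17).

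Among myeloid factors, 16 of 17 listed genes were in the table, 4 passed and 2, Irf8 and Irf5, were higher. Both passed through E10.5 only, so the filter favoured a call of higher. With no filter, 9 of the 16 were higher and 0 lower, against 1551 of 15967 genes higher and 1841 lower. Irf8, which directs monocyte fate, was detected in 5 of 89, 29 of 46 and 46 of 87 cells (means 0.849, 39.8 and 29.4 CPM). Irf5 was detected in 2 of 89, 27 of 46 and 66 of 87 cells. Spi1 (PU.1) missed the filter with means of 6.85, 21.6 and 13.4 CPM and 55, 42 and 75 cells detected, and Cebpa was detected in 3, 19 and 27 cells.

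Cytokine and chemokine receptors were more often higher than lower. Of 30 listed, 29 were in the table, of which 18 were higher and 2 lower with no filter. Over all 15967 genes, 1551 were higher and 1841 lower with no filter. Of the 13 compared, 6 were higher, among them Tnfrsf1b (2.87) and Tnfrsf1a (1.43), receptors of tumour necrosis factor, and 2 were lower: Epor, the erythropoietin receptor (-2.85), and P2ry14, a UDP-glucose receptor (-1.28). Epor was detected in 59 of 89, 2 of 46 and 22 of 87 cells. The sign of P2ry14 turned with medians over cells (0.36), since its median was 23.4 CPM at E8.5 and 30.3 CPM at E10.5.

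Endothelial genes were lower at E10.5. Of 34 listed genes, all in the table, 19 passed, 15 were called lower and 0 higher, with a median of -1.93. Cdh5, Kdr, Lyve1 and Flt4 passed through E8.5 only, so the filter favoured a call of lower. With no filter, 25 of the 34 were lower and 0 higher, against 1841 of 15967 genes lower. Kdr (VEGF receptor 2) was detected in 86 of 89, 32 of 46 and 36 of 87 cells. Its levels ran from 0 through a median of 105.9 to 1140 CPM at E8.5, from 0 through 0.966 to 1270 CPM at E9.5 and from 0 through 0 to 252 CPM at E10.5, a log2 ratio of -3.42. Lyve1, the hyaluronan receptor that marks yolk sac haemogenic endothelium, went from 77 of 89 to 9 of 46 and 19 of 87 cells (log2 ratio -3.43), and 1 cell held 79.7% of its E10.5 sum. Flt4 (VEGF receptor 3) went from 74 of 89 to 11 of 46 and 10 of 87 cells. Tek (TIE2, -1.94) and Tie1 (-1.93) were lower to a smaller degree.

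The 4 members under 2-fold were surface proteins, of which CD34 is also carried by progenitors. Cd34 was at 0.03, Icam2 at -0.02, Pecam1 at -0.39 and Calcrl at -0.71. The summed level of the 6 endothelial markers had medians of 438, 79.6 and 85.7 CPM at the successive stages, against 2325 in E8.5 endothelium, and 0 of 89, 1 of 46 and 4 of 87 cells held none of them. The E8.5 gate required CDH5 on the cell and the later gate its absence, so the part of the gate in this list cannot be told apart from that of stage.

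Adhesion and extracellular matrix genes were lower with them. Of 30 listed genes, 28 were in the table, 17 passed, 9 were lower and 2 higher (median -1.03). With no filter, 13 of the 28 were lower and 2 higher, against 1841 of 15967 genes lower and 1551 higher. Sparc (-3.45), Fn1, fibronectin (-3.27), and the basement membrane genes Nid1 (-2.93) and Col4a2 (-2.64) were lower, while the tetraspanin Cd63 (1.57) and Cd47, the do-not-eat-me signal (1.03), were higher. Fn1 was detected in all 89 E8.5 cells with a median of 197 CPM and in 54 of 87 E10.5 cells with a median of 0.956 CPM.

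The genes with the largest ratios downwards, globins aside, were Pxdn, Reln, Igfbp5, Hapln1, Gsta4, Mest, Foxh1, Cgnl1, Lhfp, Tubb1 and Fgf13, from -5.71 to -4.48. Hapln1, which links hyaluronan to proteoglycans, was detected in 89 of 89, 45 of 46 and 49 of 87 cells, with medians of 878, 83.5 and 0.757 CPM, so that E9.5 lay between. Mest, an imprinted gene of mesoderm, went from 85 of 89 cells (median 198 CPM) to 5 of 46 and 12 of 87. Gsta4, a glutathione transferase, went from 87 of 89 cells to 10 of 46 and 14 of 87. Foxh1, a partner of SMAD proteins in Nodal signalling, went from 60 of 89 to 4 of 46 and 7 of 87. Reln (reelin) had 2 counts in all of E10.5, a ratio of 1549 (counting interval 429 to 12787), and none at E9.5. Both counts came from 1 cell, and the interval covers counting error only. Pxdn owed 52.6% of its E8.5 sum to 1 cell and Cgnl1 56.0%, and without the highest cells they stood at -4.81 and -3.92.

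Among the 12 with the largest ratios upwards, those not yet described were Hp (haptoglobin, 5.92), Ccl4 (a chemokine, 5.92), Cytip (5.88), Glipr1 (5.71) and Lilrb4a (5.53). Ccl4 had no count at E8.5 and 45 of 87 cells at E10.5, where 1 cell held 63.0% of the sum, and its E10.5 mean was at least 2589-fold higher. Cytip, a regulator of leukocyte integrin adhesion, went from 3 of 89 to 38 of 46 and 73 of 87 cells. Glipr1 and Lilrb4a were detected in 11 of 46 and 8 of 46 cells at E9.5 and in 66 and 52 of 87 cells at E10.5.

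Part of the megakaryocyte and platelet genes were lower in HPCs. Of 25 listed genes, all in the table, 16 passed, 10 were lower and 0 higher, with a median of -1.77. Members such as Tubb1 passed through E8.5 only, so the filter favoured a call of lower. With no filter, 13 of the 25 were lower and 1 higher, against 1841 of 15967 genes lower and 1551 higher. F2r (the thrombin receptor PAR1) was detected in 89 of 89 E8.5 cells from 11.3 through a median of 475 to 2060 CPM, in 40 of 46 E9.5 cells up to 541 CPM and in 68 of 87 E10.5 cells with a median of 29.5 and a highest value of 400 CPM. Tubb1 (the platelet tubulin, -4.64) went from 50 of 89 cells to 1 of 46 and 4 of 87. Thbs1 (thrombospondin, -4.12) and Rab27b (-3.57) were also lower. Nfe2, a megakaryocyte transcription factor, was at -0.06 and Cd9 at 0.63. The summed level of the 5 megakaryocyte markers Gp9, Gp1bb, Vwf, Pf4 and Ppbp had a median of 15.2 CPM at E8.5, 0.627 CPM at E9.5 and 17.1 CPM at E10.5. Its highest cell had 730 CPM at E8.5 and 185 CPM at E10.5. Of these markers, Pf4 was called lower by means (-1.76).

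Erythroid genes other than globins were lower in 7 of 18 compared (median -0.74), with 38 listed and 36 in the table. Epor was at -2.85 and Blvrb (biliverdin reductase) at -1.41, while Gata1 (-0.72), Gfi1b (-0.11) and Bpgm (0.04) were under 2-fold. These values rested on part of the E8.5 capture: 32 of 89 E8.5 cells had 1000 CPM or more of the embryonic globins Hba-x, Hbb-bh1 and Hbb-y together. Without those cells 2 of 16 compared erythroid genes were lower and 1 higher, the median was -0.02 and Blvrb turned to 0.86. The megakaryocyte and platelet list had 8 of 14 lower and the endothelial list had 17 of 20 lower without them. The 4 markers of primitive erythroid cells summed to a median of 135.5 CPM at E8.5 and 0 at the later stages, against 104266 in E8.5 primitive erythroid cells. All 3 globins that passed the filter, of 9 listed and 7 in the table, were lower at E10.5 (median -8.13).

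Within the E8.5 capture, the endothelial and erythroid genes called lower ran against each other from cell to cell (Pearson r -0.69, Spearman correlation -0.65 of mean log2 levels, 89 cells of 1 library), while erythroid and platelet genes ran together (r 0.58). Granule and leukocyte signalling genes called higher ran together at E8.5 (r 0.72), as at E9.5 (r 0.60, 46 cells) and less so at E10.5 (r 0.37, 87 cells). Both sets were chosen for being lower at E8.5. There Mpo, Prtn3, Serpinb1a and Cpa3 had no count in most cells, so that r rests in part on the few cells with counts. Endothelial and leukocyte signalling genes had r 0.27, -0.35 and -0.48 at the successive stages. These values describe cells of 1 library each, which share their scaling and depth, and carry no test.

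**Figure D3:**
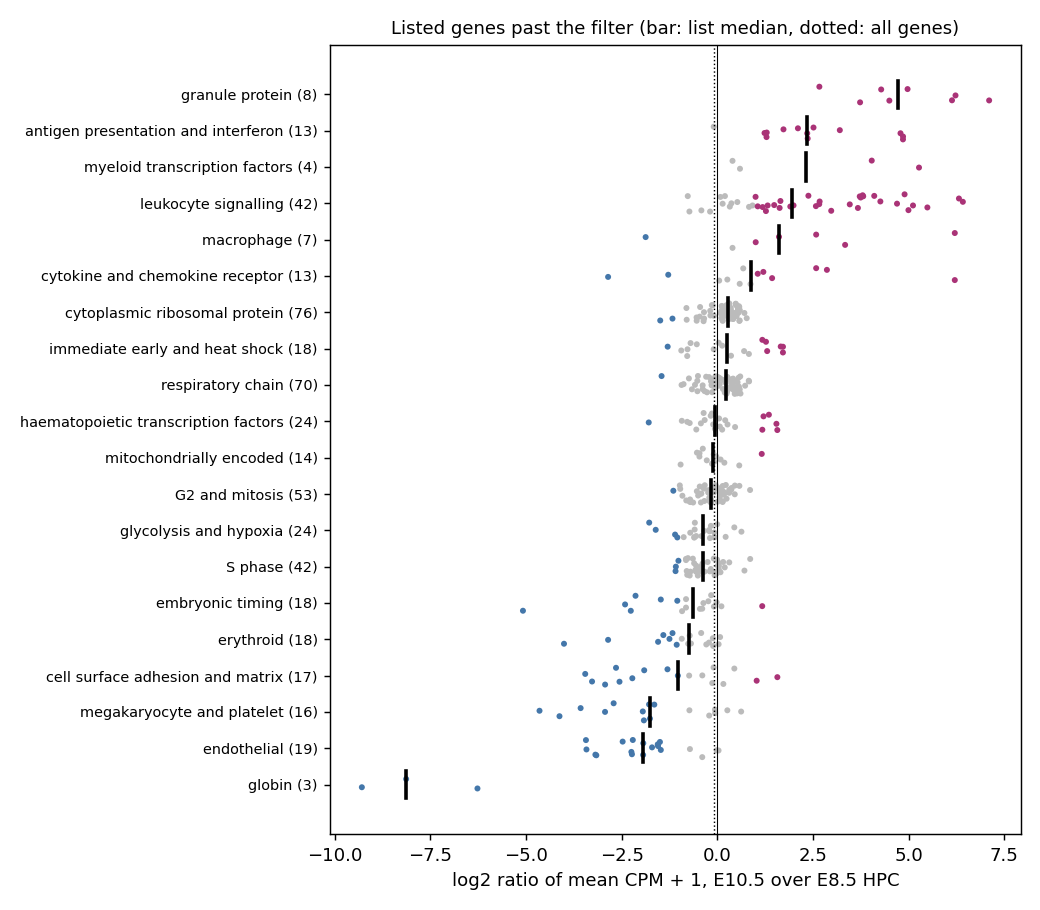
Log2 ratios (E10.5 over E8.5) of the genes of 20 lists that passed the filter, with their number in brackets; purple points were called higher, blue lower, grey neither, black bars are list medians and the dotted line is the median of all compared genes (-0.09). Granule, antigen presentation and leukocyte signalling genes lie to the right (medians 4.74, 2.35 and 1.95), endothelial and platelet genes to the left (-1.93 and -1.77), and ribosomal, respiratory and mitotic genes near 0.

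Genes linked to embryonic timing were partly lower. Of 30 listed (Lin28, Igf2bp, Hmga, Dnmt3 and imprinted genes), 28 were in the table, 18 passed, 6 were lower and 1 higher (median -0.63). Lin28a, which blocks maturation of let-7 microRNAs, was detected in 78 of 89, 24 of 46 and 29 of 87 cells, with medians of 42.6, 0.492 and 0 CPM (log2 ratio -2.26). Trim71, a target of let-7, had means of 326, 322 and 116.5 CPM, so its difference lay after E9.5. Igf2bp1 (301, 174 and 145.7 CPM, -1.04), Grb10 (-2.41) and Peg3 (-2.14) were lower, whereas Lin28b (-0.45) and Hmga2 (0.11) were under 2-fold. Dnmt3a, a de novo DNA methyltransferase, was higher (77.2, 137.4 and 176 CPM, 1.18).

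Cell cycle and housekeeping lists differed little. Of 42 compared S phase genes, 3 were lower (Ccne2, Dscc1 and Casp8ap2, -1.09 to -1.01) and 0 higher, with a median of -0.38, and with CPM by total counts 0 were called. Of 53 G2 and mitosis genes, Kif11 alone was lower (-1.15), and without the highest cells it stood at -0.63. Ribosomal proteins had 2 of 76 lower, Rps2 (-1.49) and Rpl39 (-1.17), and a median of 0.29. Respiratory chain genes had 1 of 70 lower, Cox5a (-1.45), and a median of 0.23. Of 24 compared glycolysis and hypoxia genes, 4 were lower, namely Slc2a3 (-1.78), Slc16a3 (-1.61), Slc16a1 (-1.10) and Bnip3l (-1.04), and 1 by total counts.

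Immediate early and heat shock genes, which respond to dissociation, were higher in 6 of 18 compared (Egr1 1.72, Hspa1a 1.72, Hspa1b 1.66, Jun 1.31, Zfp36 1.27, Myc 1.18) and lower in 1 (Dusp1, -1.30). Their median was 0.24, their E9.5 median was 0.73 above E8.5, and the part of dissociation was not tested. None of the 17 mesenchymal and 3 visceral endoderm genes in the table passed the filter. Of the 14 mitochondrially encoded genes, mt-Nd3 alone was called (1.16, and 0.79 without the highest cells). Without cells under 1000000 counts, 0 of 14 were higher and 6 lower. The means of the list stood apart at E9.5, with median steps of 2.10 and then -2.33. The median share of mitochondrial counts per cell was lowest at E9.5, at 2.42%. Medians over cells were 272.7, 150.6 and 180.7 CPM for mt-Atp6 and 207.5, 104.7 and 113.2 CPM for mt-Co2. For these genes 1 cell held 46.8% and 48.1% of the E9.5 sum.

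The E9.5 mean lay between the means of E8.5 and E10.5 for 344 of the 480 higher genes (71.7%) and 453 of the 758 lower genes (59.8%), 797 of 1238 in all. It lay beyond the E10.5 mean for 25.2% and 35.9% of them and on the far side of E8.5 for 15 and 33 genes. On the log2 scale, with E8.5 at 0 and E10.5 at 1, the median position of E9.5 was 0.76 for higher genes (quartiles 0.53 and 1.00) and 0.83 for lower genes (0.56 and 1.12). Between E8.5 and E9.5, 319 of the 480 and 483 of the 758 genes differed 2-fold in their direction. Between E9.5 and E10.5, sorted by the same gate and neither on the first flow cell, 217 of the 1238 did so.

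**Figure D4:**
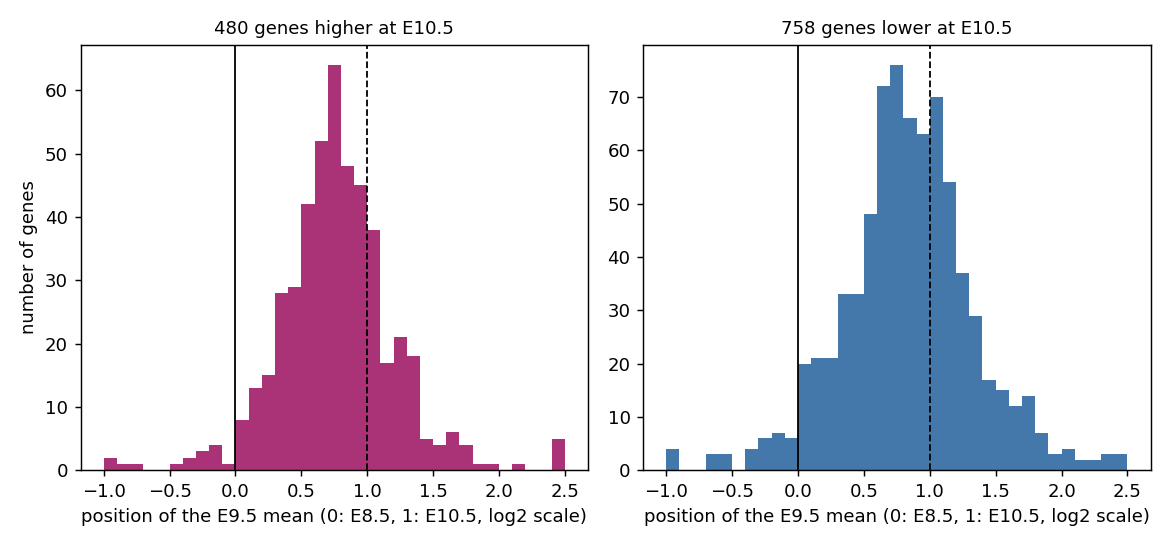
Position of the E9.5 mean between E8.5 (0, solid line) and E10.5 (1, dashed line) on the log2 scale for the 480 higher genes (left) and 758 lower genes (right), in bins of 0.1; positions outside -1 to 2.5 are drawn in the end bins. Most genes lie between 0.5 and 1.1, with medians of 0.76 and 0.83.

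The steps set beside each other were unequal. From E8.5 to E9.5, 1484 of 7212 compared genes (20.6%) differed 2-fold, 9.35% higher and 11.2% lower. From E9.5 to E10.5, 729 of 7010 (10.4%) did, 3.31% higher and 7.09% lower. From E8.25 to E8.5, with the same gate and flow cell, 261 of 6817 (3.83%) did, 1.54% higher and 2.29% lower. A pair of captures of 1 gate and stage differed 2-fold in 240 of 6695 genes (3.58%, 0.612% higher and 2.97% lower) for E7.25 Flk1-GFP+ cells and in 294 of 6748 (4.36%, 1.70% higher and 2.65% lower) for E7.75 Flk1-GFP+ cells. Between E8.5 and E10.5 the share was 17.3%.

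Gene groups differed in how the steps divided. Lists whose first step had a median past 1 and whose second step did not were leukocyte signalling (1.57, then 0.33), antigen presentation (1.91, then 0.21), endothelial genes (-1.77, then -0.09), cytokine receptors (1.53, then -0.13), myeloid transcription factors (3.36, then 0.11), macrophage genes (1.32, then 0.84) and globins (-8.38, then 0.98). Granule protein genes differed in both (3.78, then 1.39). Of named genes, Hapln1 divided almost evenly (-2.51, then -2.65), the means of Kdr did too (-1.67, then -1.74) but with 58.8% of its E9.5 sum in 1 cell and medians of 105.9, 0.966 and 0 CPM, Prtn3 and Lsp1 differed mainly in the first step (4.77, then 0.20; 5.04, then 0.07), and Gata2 differed mainly in the second step (0.31, then 1.24).

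Some means of E9.5 stood outside the other stages. Of the compared genes, 290 had an E9.5 mean at least 2-fold outside both, 165 of them above and the rest below. Of the 165, 14 were mitochondrially encoded, and in 97 a single cell held over 50% of the E9.5 sum. Plekha3 had means of 33.3, 1182 and 24.8 CPM, with 97.1% of the E9.5 sum in 1 cell and a median of 15.4 CPM, and Eef2k had 8.44, 321 and 28.2 CPM with 94.7% in 1 cell. Of those below both, Ssx2ip was detected in 59 of 89, 2 of 46 and 25 of 87 cells and Mrc1, the mannose receptor, in 73 of 89, 13 of 46 and 43 of 87.

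Cell by cell, all 46 E9.5 HPCs resembled the mean E10.5 profile more than the mean E8.5 profile (Spearman correlation over the 2000 most variable genes; 100%, exact interval 92.3 to 100%), with median correlations of 0.38 and 0.23. None of 73 E8.25 HPCs did (0%, exact interval up to 4.93%), with median correlations of 0.12 and 0.44. The 2000 genes were chosen for their variance over E8.5 and E10.5 cells. E9.5 shared the gate of E10.5, and E8.25 the gate and flow cell of E8.5. These shares therefore cannot tell stage from gate or flow cell, and their intervals cover counting error only. On the mean level of the 479 higher genes outside the mitochondrial genome, scaled so that the mean E8.5 cell is 0 and the mean E10.5 cell 1, E9.5 cells ran from -0.15 through a median of 0.64 to 1.25, and 26 of 46 lay above the highest E8.5 cell (0.55). On the 755 lower genes outside the globins they ran from 0.59 through 0.95 to 1.75. E10.5 macrophages had medians of 0.59 and 1.56 on these scales, and E10.5 endothelium -0.21 and 0.82.

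Endothelium and megakaryocytes were likewise collected at E8.5 (first flow cell) and E10.5 (the others), and no cell of theirs enters the HPC comparison. Of the 480 higher HPC genes, 181 were compared in endothelium and 86 of these (47.5%) were higher there as well, against 9.84% of the 5986 genes compared in both lineages. In megakaryocytes 231 were compared and 54.1% of them were higher, against 11.0% of 6299 genes. Of the 758 lower genes, 182 of 640 (28.4%) were also lower in endothelium, against 16.2%, and 225 of 588 (38.3%) in megakaryocytes, against 10.53%. Over whole lists, the shared higher genes were 17.9% of the HPC list and 8.10% of the 1062 higher in endothelium, and 26.0% and 13.4% of the 932 higher in megakaryocytes. The shared lower genes were 24.0% and 17.3% of 1054, and 29.7% and 29.5% of 762. All genes compared in each lineage were 15.1% higher and 15.0% lower in endothelium and 13.5% and 11.1% in megakaryocytes. These overlaps were not tested, and flow cell changed with stage in each lineage.

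In all 3 lineages, 5521 genes were compared. Of the HPC genes among them, 27 (22.7%) of the higher and 81 (16.2%) of the lower were called the same way in each. The 27 held B2m (log2 ratios 2.35 in HPCs, 2.81 in endothelium and 2.01 in megakaryocytes), H2-D1 (2.36, 3.11 and 2.92), Ifitm3 (2.11, 4.36 and 1.84), Lgals9 (1.93, 4.06 and 1.92) and Tmsb4x (1.12, 1.22 and 1.65). The 81 held Prtg, a receptor of early embryonic tissue (-3.64, -2.33 and -5.35), Sall4, a factor of pluripotent and early cells (-2.17, -1.39 and -4.92), the imprinted Snrpn (-1.92, -1.86 and -2.45) and the Y-linked Uty (-1.80, -1.10 and -2.08). These 9 were chosen after their values were seen. The level of Uty also depends on the sex of the embryos, which is not recorded. Cells with counts of both Xist and Y-linked genes were 40 of 89 at E8.5 and 19 of 87 at E10.5 in HPCs. They were 59 of 79 and 26 of 61 in endothelium, and 16 of 37 and 8 of 73 in megakaryocytes.

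The lists parted between the lineages. Of the endothelial genes compared in HPCs, 9 of 19 were higher in endothelium itself (median 0.97). Of the platelet genes, 12 of 16 were higher in megakaryocytes (median 1.93) while 10 of 16 were lower in HPCs. Antigen presentation was higher in each (2.35, 1.75 and 1.16), embryonic timing lower in each (-0.63, -0.74 and -0.72), and leukocyte signalling was 1.95, 0.82 and 1.78. These differences between lineages were not tested.

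**Figure D5:**
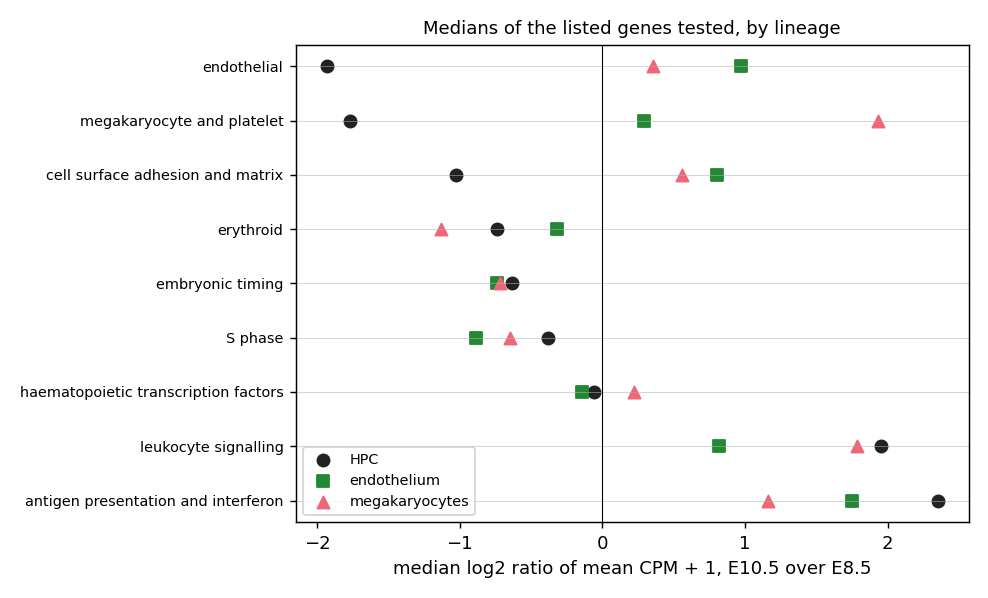
Median log2 ratio (E10.5 over E8.5) of 9 gene lists in HPCs (circles), endothelium (squares) and megakaryocytes (triangles), over the members that passed the filter in HPCs and in that lineage. The endothelial list is at -1.93 in HPCs and 0.97 in endothelium, the platelet list at -1.77 in HPCs and 1.93 in megakaryocytes, and antigen presentation to the right of 0 in all 3.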

How the data were processed

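Dissociated, sorted yolk sac cells were captured on Fluidigm C1 circuits and sequenced from full-length cDNA (Nextera XT). Per the labels, the authors aligned reads to GRCm38 with Subread and counted them with featureCounts. They removed poor cells (90, 58 and 92 HPCs captured at the 3 stages, 89, 46 and 87 kept) and rare genes. The deposited tables hold whole-number counts and a CPM signal, which the authors scaled by scran size factors. Values here are means of that CPM over cells. Sorted populations were mapped by sample title, and 3 columns were not used. No embryo is recorded per cell, so no test was run, and calls are by size with a pseudocount of 1 CPM. Intervals are exact (Clopper-Pearson, 95%). The members and gene lists were chosen with earlier results of these data known. Named genes were the 12 with the largest ratios each way, the gate genes, up to 4 called members per list and direction, uncalled defining members, the 4 with E9.5 farthest outside, and up to 6 opposite between lineages. Scripts were checked on simulated counts (Python 3.11.15, numpy, pandas, scipy). Alternatives were other filters, pseudocounts, scalings, medians, thinning to 480000 counts and subsets of cells. CPM are not divided by gene length, so genes were not ranked by level. Some genes that the rule names are not reported here.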

Additional observations from a re-analysis of the deposited data

Results flagged for a closer look

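In 6 genes the difference between E8.5 and E10.5 in HPCs ran opposite to that in both endothelium and megakaryocytes, each past 2-fold. The difference between lineages was not tested. Myc was higher in HPCs (73.8 to 168 CPM, log2 ratio 1.18) and lower in endothelium (64.9 to 29.9 CPM, -1.09) and megakaryocytes (90.4 to 36.0 CPM, -1.30). Its ratio in HPCs was 0.98 without cells that held both Xist and Y-linked transcripts. Tie1, an endothelial receptor, was lower in HPCs (29.5 to 6.98 CPM, -1.93) and higher in endothelium (47.0 to 328 CPM, 2.77) and megakaryocytes (4.89 to 26.4 CPM, 2.22). The same held for the small GTPase Rhoj (-1.81, against 1.19 and 2.08), the tyrosine sulphotransferase Tpst2 (-1.58, against 1.29 and 1.01) and the junction protein Pkp4 (-1.004, against 1.44 and 1.52). Gm13341, a predicted gene, stood at -1.02 in HPCs against 1.97 and 2.17, with 33.7% of its E8.5 sum in 1 cell and a ratio of -0.21 without cells holding both Xist and Y-linked transcripts.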

How the results depend on the processing

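No paired analysis was possible because cells of different stages are not paired and no test was made. HPC genes called higher were 4.87% of those compared with means of at least 100 CPM, 9.71% with no filter (1551 genes) and 16.0% with medians over cells (1142). Those called lower were 10.7% (268), 11.5% (1841) and, after thinning to 480000 counts, 7.02% (500). E9.5 lay between in 64.1% of calls at 100 CPM, 57.9% with no filter and 62.0% with medians. Endothelium shared 16.4% of the higher genes at 100 CPM, 33.8% with no filter, 15.5% under a pseudocount of 10 and 4.73% with medians, and 27.2%, 28.1%, 22.2% and 60.4% of the lower ones. Megakaryocytes shared 27.9% of the higher genes at 100 CPM, 33.4% with no filter and 26.4% with medians, and 34.0%, 30.3% and 39.6% of the lower ones, with 26.5% under a pseudocount of 10 and 28.4% after thinning. The E7.25 and E7.75 captures differed in 1.6% and 1.67% of genes at 100 CPM, 10.1% and 12.2% with no filter, 1.46% and 1.72% under a pseudocount of 10 and 14.6% and 15.1% with medians, and E7.75 in 2.81% after thinning. Signs turned for Mrc1 (-3.40) and P2ry14 (0.36) with medians, Blvrb (0.86) without globin-rich cells and Mrc1 (-2.09) without macrophage-gene cells. The causes were not tested. Over the alternatives that recompute a ratio, so without both filters, 951 ratios of named genes kept their call, 79 fell below 2-fold and 4 turned. Leaving out cells over 20% mitochondrial counts, and each gene's highest cell, were chosen after seeing the data. With 1 capture per stage, no alternative measures the spread between embryos.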
